A study of Mus musculus with 8 samples.

Results

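Fibroblasts build and remodel the extracellular matrix of skin, and 10 of its non-collagenous glycoproteins were examined here: Fn1, Sparc, Thbs1, Thbs2, Tnc, Postn, Fbn1, Eln, Fbln2 and Fbln5. They were taken by name, as matricellular, adhesive and elastic fibre proteins, from the 17091 features of the deposited table, and all 10 were in it. The libraries came from immortalised skin fibroblasts of mice, either labelled mir210lox/lox (called KO by the labels) or C57BL/6 (WT), kept for 24 hours in 1% oxygen (hypoxia) or 21% oxygen (normoxia). There were 2 libraries each of KO hypoxia, KO normoxia, WT hypoxia and WT normoxia, 8 in all. Lox sites flank DNA that the Cre recombinase can remove, and the labels name no Cre, so KO is used only as the name of the group. Whether replicate libraries were separate cultures, and how many mice gave cells, is not stated in the labels. The p values therefore measure only how far these libraries spread, which may be technical. All values below are the authors' normalised read counts.

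Fibronectin (Fn1) is an adhesive protein that cells pull into fibrils through integrins, and much of the later matrix is laid down on it. Matricellular proteins such as Sparc, the thrombospondins, tenascin C (Tnc) and periostin (Postn) do not mainly bear load but alter how cells bind matrix and growth factors, and they are prominent in healing skin. Elastic fibres form when tropoelastin (Eln) is deposited on microfibrils of fibrillin 1 (Fbn1) with the help of fibulins such as Fbln5. The design sets low against high oxygen in cells of both genotypes, miR-210 being a microRNA whose gene is induced by the hypoxia factor HIF.

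The mature microRNA that the KO label refers to is given with its seed, bases 2 to 8, in capitals, because a target transcript would be expected to carry its complement. RefSeq places it on GRCm38.p6 at chr7:141221407-141221428, minus strand.
miR-210-3p: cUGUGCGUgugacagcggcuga
The complement of the seed, ACGCACA, was in 0 of the 10 annotated 3′ UTRs of the glycoprotein genes and in 393 of 10773 3′ UTRs of coding genes tested (3.65%), which says only that these letters are not in those UTRs. Mir210 itself stood at 1, the floor of the table, in each of the 8 libraries, so its level does not check the KO label.

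The oxygen label was checked on 5 genes of the hypoxia response. Slc16a3, a lactate exporter, had 634 and 606 in KO hypoxia and 25 and 9 in KO normoxia, against 333 and 443 in WT hypoxia and 15 and 13 in WT normoxia. All 5 rose by limma in both genotypes, although with no filter on low values 3 in WT and 5 in KO kept their direction but missed the threshold. Depth, estimated from the spacing of low values, was 6.26 M to 11.77 M reads per library. Libraries of a group correlated across features at 0.954 to 0.985 and libraries of different groups at 0.946 to 0.988. The change of level per doubling of transcript length ran from -0.17 in KO normoxia replicate 1 to 0.16 in KO normoxia replicate 2, on the log2 scale, and was -0.14 in WT hypoxia replicate 2. Long transcripts were thus low in KO normoxia replicate 1 relative to its replicate. All 11 fibroblast markers were in the table, led by S100a4 and Vim, while Lum and Fap did not pass 40 in any library. Their summed level, mostly S100a4 and Vim, was 66186 to 69704 in KO hypoxia and 61232 to 88256 in KO normoxia. It was 64969 to 92274 in WT hypoxia and 67677 to 76705 in WT normoxia. Single fibroblast markers differed more, such as Dcn, at 12 to 25 in KO libraries and 40 to 93 in WT libraries. In KO against WT over both oxygen levels 6 of the 11 had positive and 5 negative log2 differences. Limma gave 4 of 11 an unadjusted p under 0.05, against 6.07% of features, and called none (smallest adjusted p 0.211). Lum and Fap, both lower in KO, passed the filter on low values only through WT hypoxia and WT normoxia replicate 2. Their lower KO values follow in part from the filter, so these counts cannot be read against the share of all features. Smooth muscle markers, led by Cnn1, summed to 4258 to 4755 in KO hypoxia and 3511 to 4210 in KO normoxia. Their sums were 5676 to 6600 in WT hypoxia and 4970 to 6850 in WT normoxia, above every KO library. Cnn1, the largest part of each sum, was at most 3387 in KO and at least 3514 in WT. Over all features, 1.7% were lower in KO without overlap. The other smooth muscle markers did not all follow: Smtn had 752 and 692 in KO hypoxia and 629 and 477 in WT hypoxia. Values of Actg2 overlapped between the genotypes. Sums of the endothelial, leukocyte, keratinocyte, and Schwann cell and melanocyte lists stayed at or under 104, with the keratinocyte genes Krt5 and Krt1 at 1 throughout, and of the adipocyte and skeletal muscle list Acta1 alone, at up to 977, was above 1. The part of these other markers in the results was not tested.

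**Figure D1:**
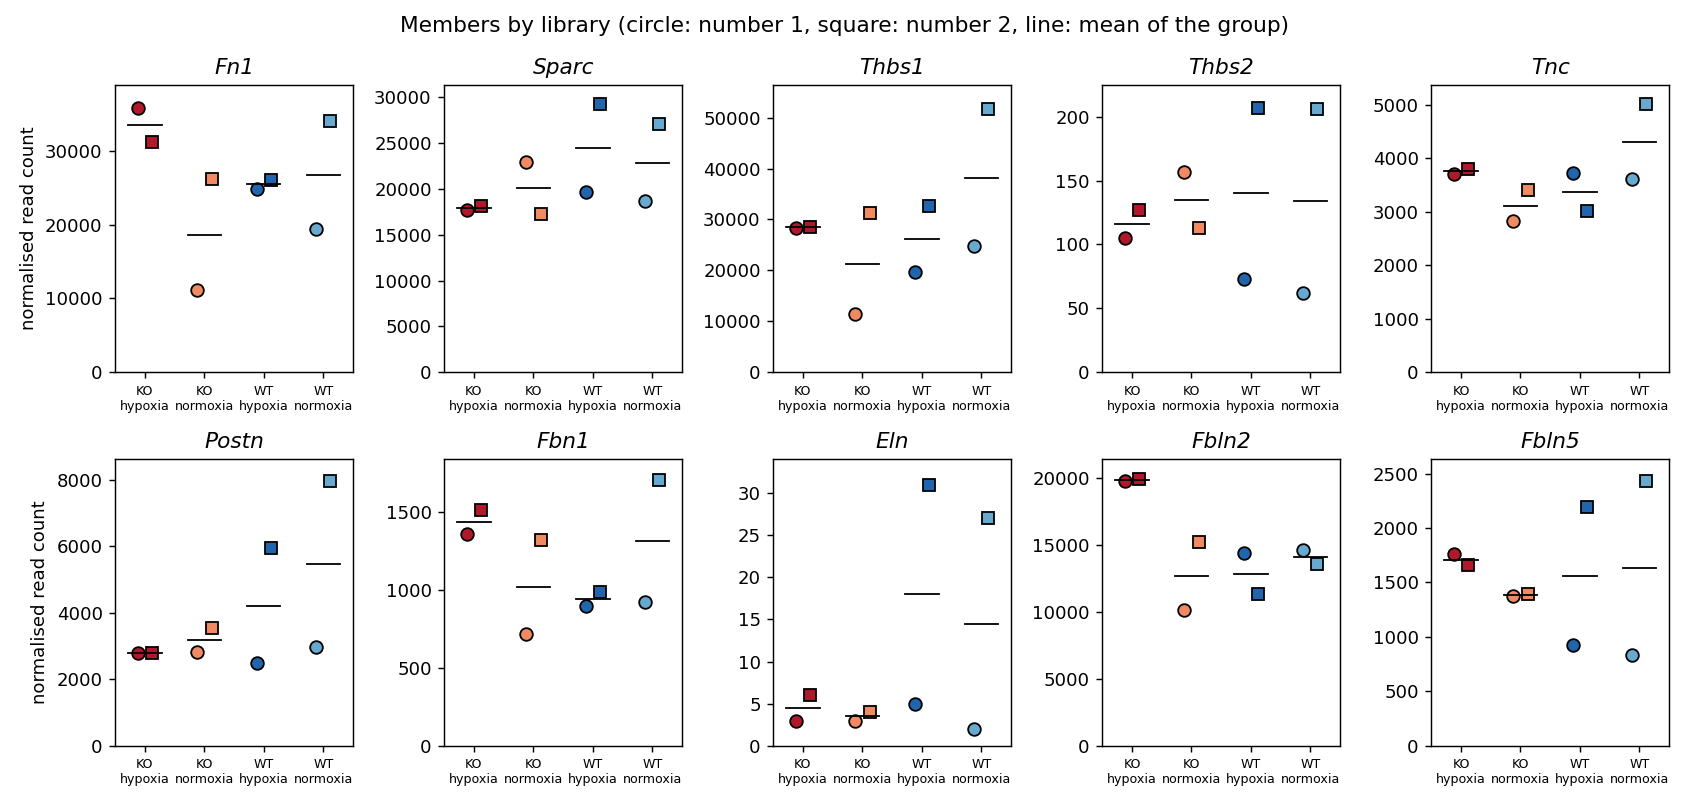
Normalised read counts (vertical axis, from 0) of the 10 glycoprotein genes in the 8 libraries, grouped along the horizontal axis, with circles for replicate 1, squares for replicate 2 and a line at the group mean. KO hypoxia replicates lie close together for most genes, whereas the WT squares lie well above the WT circles for Thbs2, Postn, Eln and Fbln5.

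The 10 genes summed to 0.759% (KO normoxia replicate 1) to 1.77% (WT normoxia replicate 2) of all normalised reads. Per kilobase of the longest transcript, the mean level over the 8 libraries was highest for Sparc (9286 normalised reads per kb), followed by Thbs1 (4882), Fn1 (3144), Fbln2 (3103) and Postn (1220). Tnc (512.1), Fbln5 (269.5), Fbn1 (98.6) and Thbs2 (22.3) were lower, and Eln (2.63) was lowest. Each neighbour in this order ranked the same way in 8 of 8 libraries, except that Fn1 was above Fbln2 in only 3 of 8. Within the elastic fibre, the elastin gene was far below the genes of the microfibril and of the fibulins on this per-length scale.

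Fn1 (chromosome 1, 71585520 to 71653200, minus strand; all gene positions are on GRCm38, GENCODE M21) had 35937 and 31319 in KO hypoxia, 11176 and 26178 in KO normoxia, 24923 and 26076 in WT hypoxia and 19466 and 34095 in WT normoxia. The KO hypoxia libraries were above both KO normoxia libraries, and the 2 normoxia groups were each spread widely. Its means were 33628 ± 3265 in KO hypoxia, 18677 ± 10608 in KO normoxia, 25500 ± 815.3 in WT hypoxia and 26780 ± 10344 in WT normoxia (SD, n = 2 each).

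Sparc (chromosome 11, 55394500 to 55423183, minus strand), which binds collagen, had 17725 and 18141 in KO hypoxia, 22978 and 17301 in KO normoxia, 19674 and 29277 in WT hypoxia and 18701 and 27070 in WT normoxia. It was the steadiest of the 10, with a highest value 1.69 times its lowest. Thbs1 (chromosome 2, 118111876 to 118127133, plus strand), thrombospondin 1, an activator of latent TGF-beta, had 28374 and 28581 in KO hypoxia, 11320 and 31318 in KO normoxia, 19665 and 32649 in WT hypoxia and 24742 and 51737 in WT normoxia. Its KO hypoxia replicates differed by little, while 4.57 times separated its lowest from its highest library. Thbs2 (chromosome 17, 14665500 to 14694235, minus strand), a related thrombospondin that affects collagen fibril shape in mouse skin, had 105 and 127 in KO hypoxia, 157 and 113 in KO normoxia, 73 and 207 in WT hypoxia and 62 and 206 in WT normoxia. The WT groups held both its lowest and its highest values.

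Tnc (chromosome 4, 63959785 to 64047015, minus strand), tenascin C, had 3709 and 3808 in KO hypoxia, 2818 and 3413 in KO normoxia, 3732 and 3019 in WT hypoxia and 3605 and 5009 in WT normoxia. Its highest library was 1.78 times its lowest. Postn (chromosome 3, 54361109 to 54391037, plus strand), periostin, had 2788 and 2786 in KO hypoxia, 2830 and 3537 in KO normoxia, 2479 and 5937 in WT hypoxia and 2969 and 7954 in WT normoxia. Only the WT libraries numbered 2 were above 3537.

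Fbn1 (chromosome 2, 125300594 to 125507993, minus strand), the backbone of microfibrils, had 1360 and 1514 in KO hypoxia, 717 and 1323 in KO normoxia, 900 and 991 in WT hypoxia and 926 and 1707 in WT normoxia. As for Fn1, both KO hypoxia libraries were above both KO normoxia libraries. Fbln2 (chromosome 6, 91212455 to 91272540, plus strand), a fibulin that binds fibronectin and fibrillin, had 19724 and 19911 in KO hypoxia, 10134 and 15224 in KO normoxia, 14371 and 11288 in WT hypoxia and 14586 and 13583 in WT normoxia. Both KO hypoxia libraries were above every other library. Fbln5 (chromosome 12, 101746565 to 101819055, minus strand), which tethers tropoelastin to microfibrils and whose loss in mice gives loose skin, had 1758 and 1659 in KO hypoxia, 1373 and 1397 in KO normoxia, 923 and 2191 in WT hypoxia and 835 and 2432 in WT normoxia. Its KO libraries lay between the low and the high WT libraries.

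Eln (chromosome 5, 134702593 to 134747323, minus strand) had 3 and 6 in KO hypoxia, 3 and 4 in KO normoxia, 5 and 31 in WT hypoxia and 2 and 27 in WT normoxia. An estimated 2.17 to 8.12 reads stood behind the 6 low values and 29.5 and 22.7 behind the WT hypoxia and WT normoxia libraries numbered 2. Eln passed the filter on low values (at least 10 in at least 2 libraries) only through those 2 libraries. Fn1, Thbs1, Tnc, Fbn1 and Eln each overlap another annotated gene on the opposite strand, and the use of strand in counting is not given in the sources used here, so reads of the partners could not be told apart.

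Within WT, the libraries numbered 2 were set apart from those numbered 1 by several of these genes at both oxygen levels. Eln was 6.2 times as high in replicate 2 as in replicate 1 of WT hypoxia and 13.5 times in WT normoxia. The ratios were 2.84 and 3.32 for Thbs2, 2.39 and 2.68 for Postn, and 2.37 and 2.91 for Fbln5. In KO the same ratios were 2.0 in hypoxia and 1.33 in normoxia for Eln, where both values rest on few reads. For Thbs2 they were 1.21 and 0.72, for Postn 0.999 and 1.25, and for Fbln5 0.944 and 1.02. Eln had to be high in these libraries to pass the filter, so shares are given over the 9 other genes and the 11919 features that pass it in the remaining 6 libraries. Thbs2, Postn and Fbln5 were at least 1 log2 unit higher in WT replicate 2 at both oxygen levels, 3 of 9, as were 298 of those features (2.5%). With a limit of 0.5 log2 units, Sparc and Thbs1 joined them, giving 5 of 9 against 7.24% of features. Fbln2 went the other way, with ratios of 0.785 in WT hypoxia and 0.931 in WT normoxia. This split was noticed in the values, so it is given without a test.

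Fibroblast markers were counted by a looser rule, any rise from replicate 1 to replicate 2 of WT. Some of these rises were small, such as Col1a2 from 7932 to 8334 in WT hypoxia and S100a4 from 18535 to 19194 in WT normoxia. Of the 9 markers that passed the filter in the remaining 6 libraries, 8 were higher in replicate 2 than in replicate 1 of WT at both oxygen levels, as were 7 of 9 glycoprotein genes and 30.4% of the 11919 features. The excess was not particular to them. Of the lists of related genes described below, it held for 12 of 15 elastic fibre, 14 of 18 other matricellular and 8 of 13 receptor genes. It also held for 3 of the 5 hypoxia check genes. The other 2 fibroblast markers, Lum and Fap, passed the filter only through the WT libraries numbered 2, as Eln did, and are given as values alone. Lum, a small proteoglycan of collagen fibrils, had 3 and 4 in KO hypoxia, 1 and 3 in KO normoxia, 6 and 36 in WT hypoxia and 4 and 27 in WT normoxia. Fap, a protease of activated fibroblasts, had 4 and 4 in KO hypoxia, 4 and 7 in KO normoxia, 9 and 40 in WT hypoxia and 7 and 38 in WT normoxia. Pdgfra, a growth factor receptor of fibroblasts, had 923 and 998 in KO hypoxia, 1019 and 1385 in KO normoxia, 405 and 1039 in WT hypoxia and 608 and 1156 in WT normoxia. Pdgfra was lowest in the WT libraries numbered 1. Among 5 tested smooth muscle markers 1 was higher in replicate 2 of WT at both oxygen levels, Myh11, with 48 and 59 in KO hypoxia, 25 and 65 in KO normoxia, 54 and 90 in WT hypoxia and 67 and 398 in WT normoxia. The part of these markers in the values of the glycoprotein genes was not tested. In such bulk libraries, fewer cells of a type and less RNA per cell cannot be told apart.

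Promoter windows of 3 of the genes that were high in the WT libraries numbered 2 are given here, since these genes moved together. They run from 250 bases before to 50 bases after a RefSeq transcript start on GRCm38.p6, at chr17:14694213-14694512 (minus strand) for Thbs2, chr3:54360857-54361156 (plus strand) for Postn and chr12:101819070-101819369 (minus strand) for Fbln5. Capitals mark TATAA, the letters of a TATA box, on the sense strand.
Thbs2: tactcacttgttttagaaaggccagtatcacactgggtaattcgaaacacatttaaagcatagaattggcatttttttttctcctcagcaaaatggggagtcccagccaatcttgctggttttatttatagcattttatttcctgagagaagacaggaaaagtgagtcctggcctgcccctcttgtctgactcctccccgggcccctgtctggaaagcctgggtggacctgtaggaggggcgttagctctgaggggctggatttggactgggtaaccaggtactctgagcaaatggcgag
Postn: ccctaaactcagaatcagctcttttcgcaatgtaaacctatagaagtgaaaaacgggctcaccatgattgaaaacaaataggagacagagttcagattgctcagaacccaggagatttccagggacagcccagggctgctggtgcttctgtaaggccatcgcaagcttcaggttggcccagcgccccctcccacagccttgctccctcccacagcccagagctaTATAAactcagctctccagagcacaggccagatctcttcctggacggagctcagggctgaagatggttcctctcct
Fbln5: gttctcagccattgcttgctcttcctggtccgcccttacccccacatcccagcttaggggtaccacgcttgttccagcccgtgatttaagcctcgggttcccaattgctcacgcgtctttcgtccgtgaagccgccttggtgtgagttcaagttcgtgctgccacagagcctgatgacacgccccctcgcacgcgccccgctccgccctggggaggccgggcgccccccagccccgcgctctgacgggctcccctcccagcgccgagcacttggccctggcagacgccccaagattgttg
Of these windows that of Postn held TATAA, a short distance before the start. Postn and Fbln5 each have another window, not shown, without TATAA. Over the 7 of the 10 genes with a window (10 windows in all), TATAA was in 3 windows, against 17.5% of 32851 mouse windows of the same length. The 3 are this one of Postn and both of Tnc, which overlap and share a match, so they are not separate sites. ACGTG, the core letters of a HIF response element, searched on both strands, was in 0 of the 10 windows and in 19.6% of all windows. A match is a description of the letters and not a bound site. Fn1, Thbs1 and Eln had no window in the table used.

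**Figure D2:**
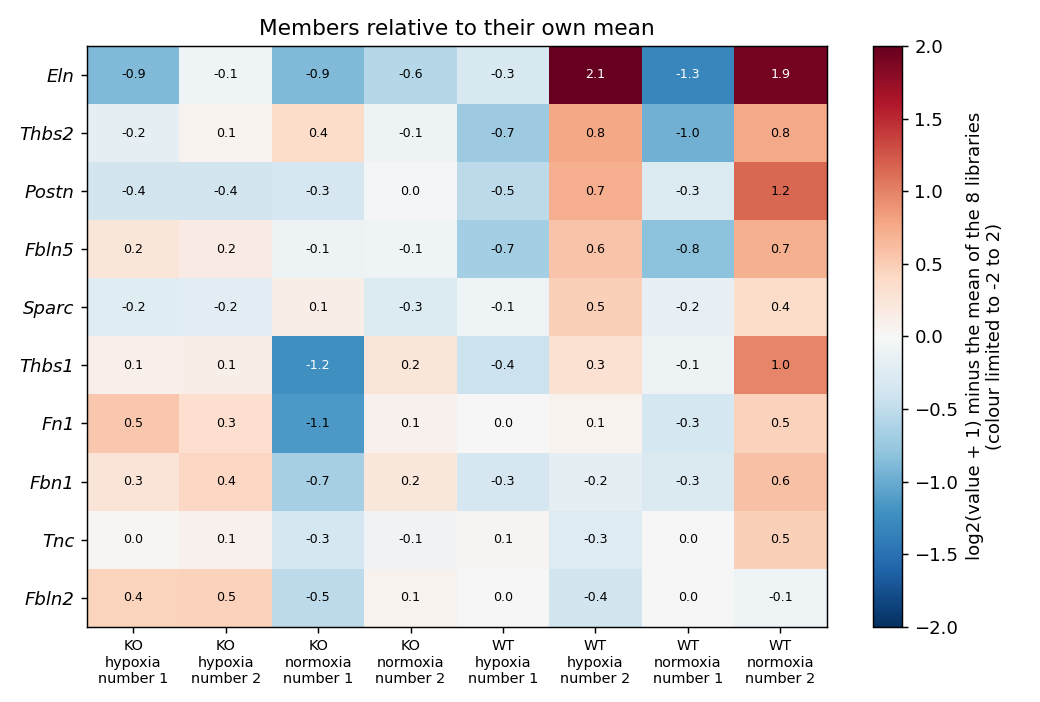
Level of each of the 10 genes (down the page) in each library (across) as log2(value + 1) minus that gene's mean over the 8 libraries, with the number in each cell and red for high. Eln, Thbs2, Postn and Fbln5 are red in the WT hypoxia and WT normoxia libraries numbered 2, and Thbs1, Fn1 and Fbn1 are most blue in KO normoxia replicate 1.

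Across the 8 libraries the genes fell along these lines. Pearson r of log2(value + 1) was 0.91 between Thbs2 and Fbln5 and 0.89 between Postn and Eln. It was 0.86 between Fn1 and Fbn1, 0.84 between Fn1 and Thbs1 and 0.84 between Thbs1 and Fbn1, and -0.71 between Sparc and Fbln2. The features most like each gene over the 8 libraries were, for Fn1, Inhba (r = 0.985), the activin A subunit. For Sparc the closest was Maged2 (0.993), for Thbs1 Rnf146 (0.988), for Thbs2 Zrsr1 (0.993) and for Postn Atp8b1 (0.982). For Tnc it was Mmp14 (0.952), a membrane-bound matrix protease, for Fbn1 Klf3 (0.989) and for Fbln2 Ppp1r13l (0.982). Eln ran closest to G0s2 (0.991), an inhibitor of lipolysis, and Fbln5 to Sox9 (0.994), a transcription factor of cartilage and hair follicles, and to the matrix protein gene Svep1 (0.988). These are descriptions over 8 libraries that share the same depth and length trends, and many features can reach such values by their few extreme libraries.

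In KO cells, Fn1, Fbln2 and Fbn1 had higher means in hypoxia than in normoxia, but no glycoprotein gene passed the test over all features. By limma on log2(value + 1), with p values adjusted over 12107 features, 0 of 10 were called, against 0.0578% of all features. At an unadjusted p under 0.05 there were 2 of 10, Fn1 and Fbln2, against 3.2% of features. Fn1 had a log2 fold change of 0.97 ± 0.42 (SE; 95% interval 0.03 to 1.91; limma adjusted p = 0.916), 1.8 times by the ratio of means. Fbln2, at 19818 ± 132.2 in KO hypoxia and 12679 ± 3599 in KO normoxia (SD, n = 2 each), had 0.67 ± 0.29 (0.03 to 1.32; limma adjusted p = 0.916). Thbs1 had 0.60 ± 0.51, Fbn1 0.56 ± 0.34, Fbln5 0.30 ± 0.48, Tnc 0.28 ± 0.25 and Eln 0.24 ± 1.07. Sparc, Postn and Thbs2 had -0.15 ± 0.33, -0.18 ± 0.47 and -0.20 ± 0.57.

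Fn1, Tnc, Fbn1, Fbln2 and Fbln5 were higher in both KO hypoxia libraries than in both KO normoxia libraries, 5 of 10 against 15.9% of features. Postn alone was lower without overlap, 1 of 10 against 16.3%. The median log2 fold change of the 10 was 0.29, against 0.01 over all features tested. KO normoxia replicate 1, in which long transcripts were low, was also the lowest library for Fn1, Thbs1, Tnc, Fbn1 and Fbln2. In it Fn1 was 1.31 log2 units under its mean in the other 7 libraries (a difference of -1.31), against a median of -0.47 for the 910 tested features of similar length (within 20%). Thbs1 stood at -1.40 against -0.29 for features of its length, and Fbln2 at -0.59 against -0.16. Fbn1, at -0.76 against -0.65, and Tnc, at -0.40 against -0.40, were near the features of their length. Without that library the KO response was 0.36 for Fn1, 0.38 for Fbln2, 0.12 for Fbn1 and -0.14 for Thbs1, and no gene of the 10 was called. Without KO normoxia replicate 2 it was 1.59 for Fn1 and 0.97 for Fbln2, with the lone normoxia library assumed to vary like the other groups. Fn1 passed the threshold in that fit, as did many more features than with all libraries. With a smooth trend on transcript length removed from each library the KO response was 0.70 for Fn1, 0.58 for Fbln2, 0.44 for Thbs1, 0.18 for Fbn1 and 0.05 for Tnc.

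**Figure D3:**
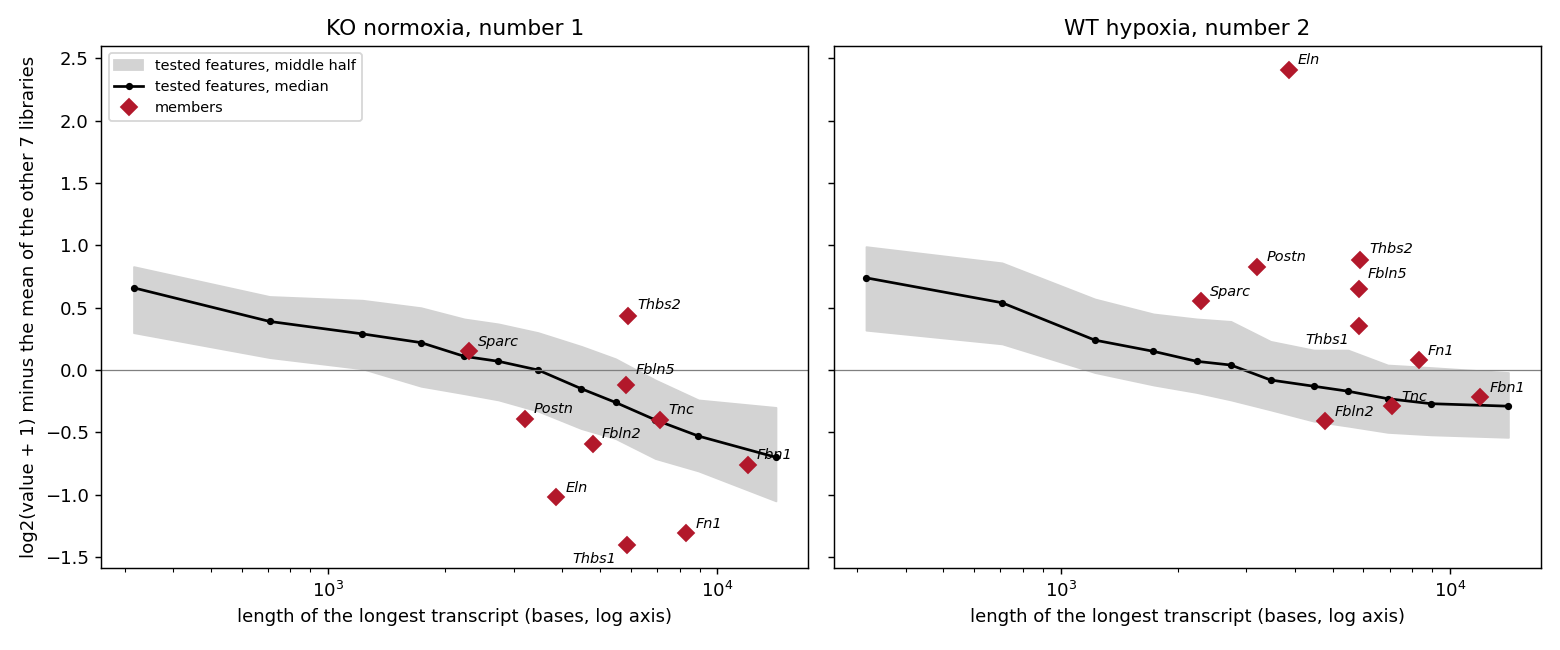
Difference of log2(value + 1) in one library from the mean of the other 7 libraries (vertical axis) against the length of the longest transcript in bases (log axis), for KO normoxia replicate 1 (left) and WT hypoxia replicate 2 (right), with red diamonds for the glycoprotein genes, a line for the median of all tested features and grey for their middle range. In KO normoxia replicate 1 Fn1 (-1.31) and Thbs1 (-1.40) lie below features of their length while Fbn1 and Tnc lie on the line, and in WT hypoxia replicate 2 Eln (2.41) lies far above.

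In WT cells 7 of the 10 genes had negative log2 fold changes in hypoxia against normoxia, among them Fbln5 at 0.00, and 3 had positive ones. Of all features 47.8% were positive. In KO the count was 7 positive and 3 negative, where 51.1% of features were positive. By limma 0 of 10 were called (0.107% of all features were), and 0 of 10 had an unadjusted p under 0.05 (6.33% of features). Thbs1 had a log2 fold change of -0.50 ± 0.51, Fbn1 -0.41 ± 0.34, Tnc -0.34 ± 0.25 and Postn -0.34 ± 0.47. Fbln2 had -0.14 ± 0.29, Fn1 -0.02 ± 0.42, Fbln5 0.00 ± 0.48, Sparc 0.09 ± 0.33, Thbs2 0.12 ± 0.57 and Eln 0.60 ± 1.07. None of the 10 had WT hypoxia and WT normoxia values that did not overlap, against 18.9% of features that were higher and 19.9% that were lower without overlap. The median of the 10 was -0.08, against -0.02 over all features. The values of Eln ran from -1.01 to 2.21 and those of Postn from -1.05 to 0.37 as single libraries were left out, and Thbs1 was 0.03 without WT normoxia replicate 2. The 95% intervals were wide for the genes that split the WT replicates, from -1.79 to 2.98 for Eln and from -1.07 to 1.07 for Fbln5, and a change of 1 log2 unit either way lay within both.

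**Figure D4:**
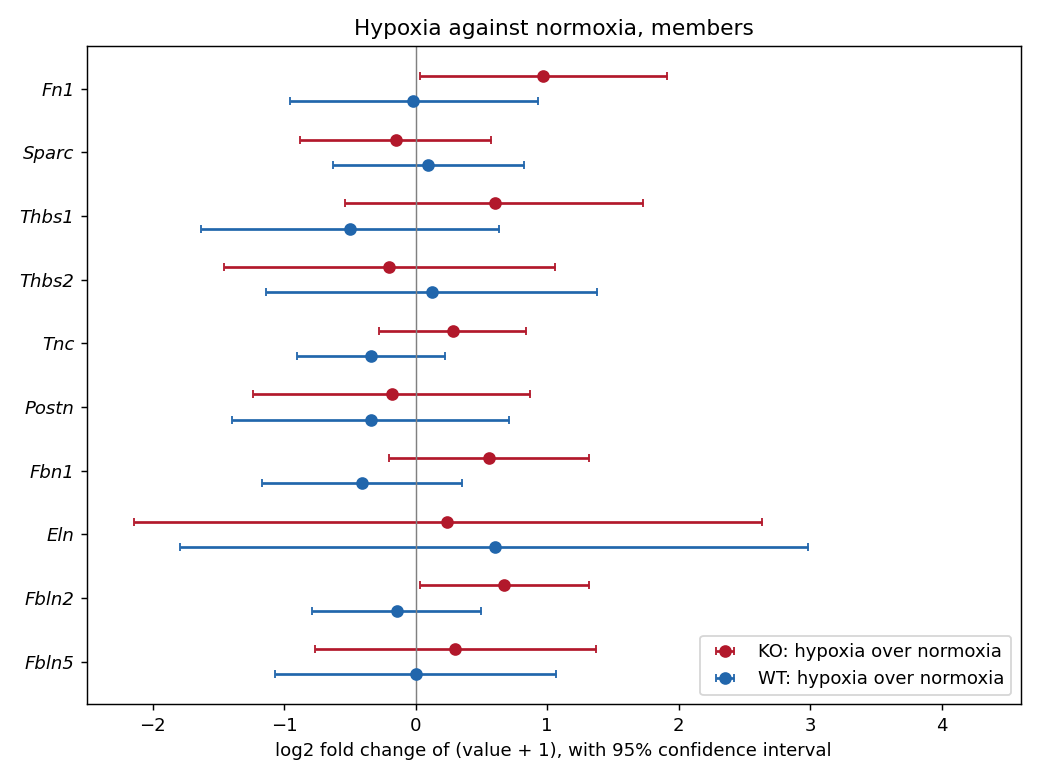
Log2 fold change of (value + 1) in hypoxia over normoxia (horizontal axis, points) with its 95% confidence interval (bars) for the 10 genes, in KO (red) above WT (blue). The KO intervals of Fn1 (0.03 to 1.91) and Fbln2 (0.03 to 1.32) lie above 0 before adjustment, and all other intervals include 0.

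The difference of the responses, KO minus WT, was tested as an interaction. It was 1.09 ± 0.72 for Thbs1, 0.99 ± 0.60 for Fn1, 0.97 ± 0.48 for Fbn1, 0.82 ± 0.41 for Fbln2 and 0.62 ± 0.36 for Tnc on the log2 scale. Limma called 0 of 10, as it did 0% of the 12107 features, and the adjusted p was 0.857 or higher for each of the 10. At an unadjusted p under 0.05 there were 0 of 10, against 3.14% of features. Single libraries moved these values by more than 1.5 times. Without KO normoxia replicate 1 the interaction was 0.36 for Thbs1, 0.37 for Fn1, 0.53 for Fbn1 and 0.52 for Fbln2, and without WT normoxia replicate 2 it was 0.56 for Thbs1, 0.58 for Fn1 and 0.53 for Fbn1. Without KO normoxia replicate 2 it was 1.83 for Thbs1 and 1.60 for Fn1, and with the length trend removed 0.49 for Fn1 and 0.34 for Fbn1. The smallest unadjusted p values of the 10 were those of Fbn1 and Fbln2, at 0.0721 and 0.073 by limma. Over both genotypes, hypoxia against normoxia gave 0.48 ± 0.30 for Fn1 and 0.26 ± 0.20 for Fbln2, with 0 of 10 called against 0.363% of features. No gene of the 10 had an unadjusted p under 0.05 there, against 5.29% of features, and the smallest adjusted p was 0.922. None had pooled values without overlap, against 2.06% of features higher and 1.65% lower.

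Between genotypes in hypoxia, KO values of Fn1, Fbn1 and Fbln2 were above WT values without overlap, 3 of 10 against 26.2% of features. Sparc was below without overlap, 1 of 10 against 24.5%. The 3 of 10 is near the share of all features. Fbln2 had 19818 ± 132.2 in KO hypoxia and 12830 ± 2180 in WT hypoxia, a log2 difference of 0.64 ± 0.29 (SE; limma adjusted p = 0.642). Fbn1 had 0.60 ± 0.34 (limma adjusted p = 0.655), Fn1 0.40 ± 0.42, Sparc -0.42 ± 0.33 and Eln -1.39 ± 1.07. Eln passed the filter only through the WT libraries numbered 2, so its lower KO value follows in part from the filter. Limma called 0 of 10 and 0% of features, with 0 of 10 against 7.52% of features at an unadjusted p under 0.05. With the length trend removed the differences were 0.48 for Fbln2, 0.14 for Fbn1 and 0.04 for Fn1. Without WT hypoxia replicate 2 those of Eln and Sparc were -0.18 and -0.13, and that of Postn, -0.46 with all libraries, was 0.17.

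In normoxia 9 of the 10 genes had lower KO than WT means on the log2 scale, where 47.7% of all features had positive differences. The median was -0.41 against -0.02 over all features. Eln is among the 9. It passed the filter only through the WT libraries numbered 2, so its lower KO values, here and over both oxygen levels, follow in part from the filter. Eln had -1.04 ± 1.07, Thbs1 -0.93 ± 0.51, Postn -0.62 ± 0.47, Fn1 -0.59 ± 0.42 and Tnc -0.45 ± 0.25. Tnc was the only gene of the 10 whose KO values were below the WT values without overlap, against 11% of features, and none was above, against 10%. Limma called 0 of 10 and 0% of features, with 0 of 10 against 3% at an unadjusted p under 0.05. Leaving out 1 library changed the sign or size of most of these values. Without KO normoxia replicate 1 the normoxia difference was 0.02 for Fn1, 0.07 for Fbn1, 0.11 for Fbln2 and -0.19 for Thbs1. Without WT normoxia replicate 2 it was 0.58 for Eln, 0.09 for Postn, -0.39 for Thbs1, -0.19 for Fn1 and -0.22 for Tnc. Over both oxygen levels Eln had -1.21 ± 0.76 and Postn -0.54 ± 0.34 (limma adjusted p = 0.878 each), and 0 of 10 were called, against 0.0248% of features. No gene of the 10 had an unadjusted p under 0.05 in that comparison, against 6.07% of features, and none had values without overlap, against 1.95% of features higher and 1.7% lower. Eln moved to -0.41 and Postn to -0.18 without WT normoxia replicate 2, and to -0.61 and -0.23 without WT hypoxia replicate 2.

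Genes that work with these glycoproteins were read from 3 lists. Of the elastic fibre and microfibril list 15 of 19 genes were tested, of other matricellular and adhesive glycoproteins 19 of 21, and of integrins and other receptors 13 of 16. By limma 0 of each list were called in each of the 7 comparisons. In KO against WT over both oxygen levels, 10 of 15 elastic fibre genes had positive differences (median 0.14), 3 of 19 matricellular genes did (median -0.29) and 3 of 13 receptor genes did (median -0.13), against 47.8% of all features. At an unadjusted p under 0.05 in that comparison there were 2, 5 and 1 genes of these lists, against 6.07% of all features. Fbln1 stands in both the elastic fibre and the matricellular list. Of the 19 matricellular genes 18 passed the filter without the WT libraries numbered 2, so the KO difference of the remaining gene is partly set by the filter.

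Fbn2, the second fibrillin, prominent in embryonic microfibrils, had 137 and 157 in KO hypoxia, 219 and 184 in KO normoxia, 49 and 120 in WT hypoxia and 67 and 101 in WT normoxia. All 4 KO values were above all 4 WT values, as for 1.95% of features, and the log2 difference was 1.10 ± 0.28 (SE; limma adjusted p = 0.41). Fbn2, Thbs3 and Itgb3 were named for the largest absolute t of their lists in this same comparison. Separation of their KO and WT values therefore follows in part from that choice, and the share over unselected features does not measure how rare it is. Fbn1, its relative, had 0.12 ± 0.24. Thbs3, another thrombospondin, had 29 and 30 in KO hypoxia, 40 and 36 in KO normoxia, 39 and 60 in WT hypoxia and 66 and 109 in WT normoxia. Its KO values were the lower at each oxygen level, with a log2 difference of -0.92 ± 0.25 (limma adjusted p = 0.537), and its pooled response to hypoxia was -0.58 ± 0.25 (adjusted p = 0.922). Itgb3, the integrin beta 3 chain that pairs with alpha V to bind fibronectin, had 87 and 76 in KO hypoxia, 65 and 80 in KO normoxia, 50 and 38 in WT hypoxia and 50 and 46 in WT normoxia. Here too all KO values were above all WT values, with 0.73 ± 0.21 (limma adjusted p = 0.562).

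Of the other genes taken by the same rule, Adamtsl4, a microfibril-binding protein, had 0.57 ± 0.23 in KO against WT. Ctgf, a matricellular TGF-beta target, had -0.59 ± 0.23, and Sdc4, a syndecan that helps integrins bind fibronectin, -0.29 ± 0.18. In the pooled response to hypoxia Ltbp4 and Ltbp2, proteins of the latent TGF-beta binding family that sit on microfibrils, had 0.67 ± 0.30 and 0.40 ± 0.25. In KO cells alone Ltbp2 had 3612 and 3567 in hypoxia and 1354 and 2971 in normoxia, and Ltbp4 216 and 191 in hypoxia and 49 and 139 in normoxia. These have the shape of Fn1, with one low library, KO normoxia replicate 1. Itga5, the integrin alpha 5 chain of the main fibronectin receptor, had 0.32 ± 0.21, Ctgf 0.38 ± 0.23 and Sdc1 -0.28 ± 0.17 in the pooled response. None of these passed the test, with a limma adjusted p of 0.742 or higher for each.

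**Figure D5:**
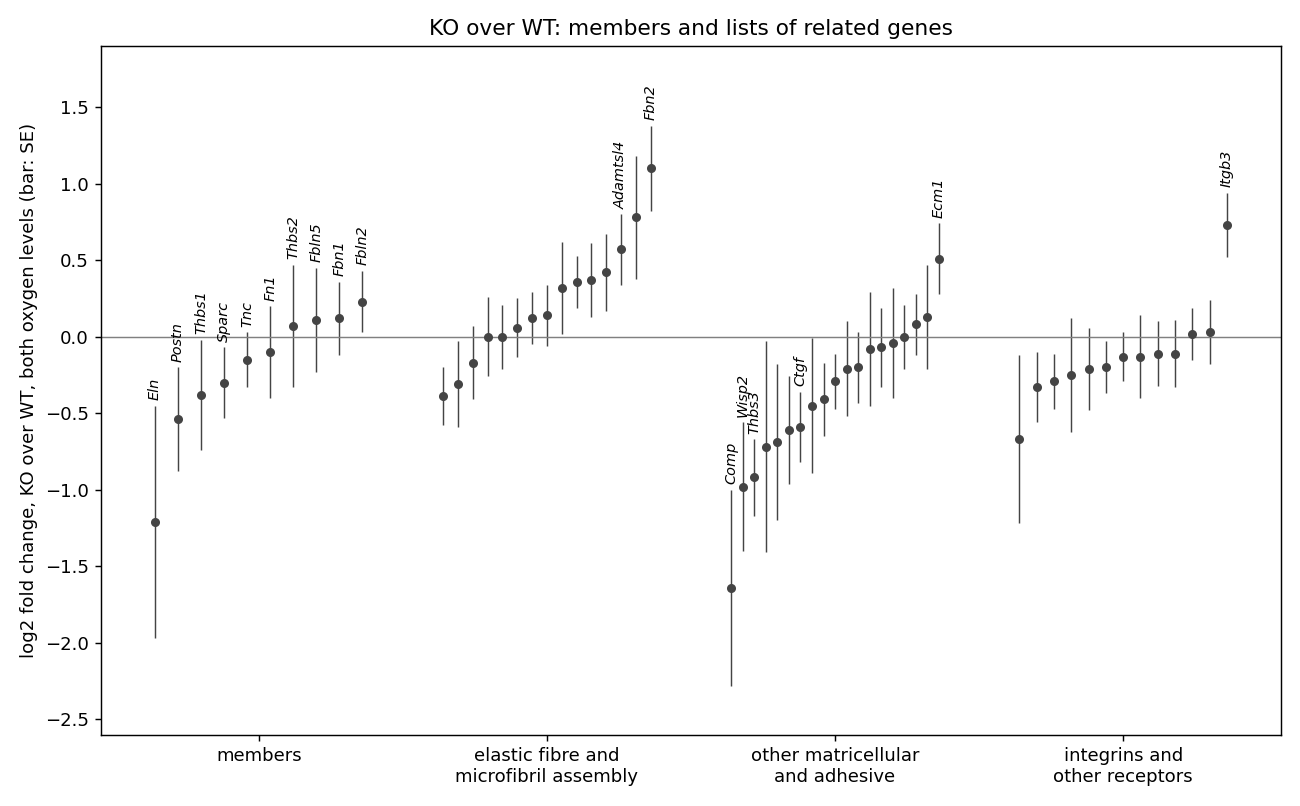
Log2 fold change of KO over WT over both oxygen levels (vertical axis; points, with SE bars) for the 10 glycoprotein genes and the tested genes of the 3 lists, each ordered from low to high. Names are given for the 10 genes and for others with an unadjusted p under 0.05, and Fbn2 (1.10) and Itgb3 (0.73) stand highest in their lists.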

How the data were processed

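RNA of 8 libraries was sequenced. Per the labels' protocols, total RNA was extracted with a miRNeasy kit and libraries were made with a small RNA set for SOLiD. The deposited table holds a score per feature and library, which its name calls normalised read counts: whole numbers with a lowest value of 1. For the authors' aligner, counting program, genome build, strand use and normalization: not given in the sources used. Whole reads were not recovered, so no count model was run and depth is an estimate.

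Values were taken as log2(value + 1), which understates changes of low genes. Features with at least 10 in at least 2 libraries were tested (12107 of 17091). limma 3.58.1 (R 4.3.3) fitted the 4 groups to all 8 libraries without a replicate term, with 10.2 degrees of freedom and a trend. The Benjamini-Hochberg method adjusted two-sided p values over every feature tested (threshold 0.05). The 7 comparisons were each oxygen, genotype and interaction contrast and both pooled ones. The procedure was tested on simulated data that held no length trend, replicate split or outlying library. That test therefore does not give the error rate in these libraries. An exact test of 2 against 2 libraries cannot go below 0.333, so calls rest on the spread shared over groups.

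The 10 genes and the lists were chosen with earlier results of these data known. From each list, the genes named are those called and the 2 with the largest absolute t in each pooled comparison, and for each of the 10 genes the most correlated features. Positions, transcript lengths and 3′ UTRs are from GENCODE M21 (GRCm38), and sequences are from RefSeq (GRCm38.p6). Alternatives covered the pseudocount, filter, scaling, length trend, replicate block, library weights and libraries left out.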

Additional observations from a re-analysis of the deposited data

How the results depend on the processing

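No called result reversed, while uncalled values changed sign in some settings, among them Eln, Postn, Thbs1 and Fn1. The 0 calls among the 10 genes held in every alternative run except 1, in which Fn1 in KO hypoxia passed without KO normoxia replicate 2. That fit leaves a lone KO normoxia library and also gave the most calls over all features of any setting in that comparison. Counts over all features moved more. In hypoxia against normoxia in WT (13 as reported) the count was 28 with no filter, 20 with the length trend removed, 21 with library weights, 6 when the fit omitted KO normoxia replicate 1 together with WT hypoxia replicate 2, and 1 to 20 with single libraries left out. In KO (7) it was 14 with the length trend removed and 4 to 760 with single libraries left out. Over both genotypes (44) it was 25 without both libraries and 12 to 50 with single libraries left out. For KO against WT, no filter gave 19 in normoxia and 14 in hypoxia (0 each as reported), 29 in the interaction (0) and 30 over both oxygen levels (3). The last count was also 0 at a filter of 50, 5 with the length trend removed, 0 without both libraries and 0 with any single library left out. The causes were not tested.

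The replicate numbers of the labels were tried as a block, which gave 11 calls in KO hypoxia. The labels do not say what a number shares, and with 2 pairs the numbers cannot be shown to pair the samples. Deviations of same-numbered replicates correlated at 0.57 between the WT groups and 0.23 between the KO groups, and at -0.11 to 0.11 across genotypes. A block within each genotype was chosen after seeing the data. It gave 230 calls in WT hypoxia, 57 in KO hypoxia, 39 and 81 for KO against WT in normoxia and hypoxia, and 243 and 213 in the pooled hypoxia and genotype comparisons. Fbn2 (adjusted p = 0.00249) and Thbs3 (0.0345) passed the pooled genotype test under it, and Fbn2 passed in normoxia (0.0379). None of the 10 genes passed under either block.

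Depth limits Eln, where a few reads decide a value. Ltbp4 and Ltbp2, like Fn1, passed in KO hypoxia without KO normoxia replicate 2, with log2 fold changes of 2.03 and 1.41. Calls over all features were also most numerous in that fit, so these passes are not particular to the genes named. The hypoxia check genes kept their direction in all alternatives. With no filter 3 missed the threshold in WT and 5 in KO, and 4 did in WT without WT hypoxia replicate 2. Car9 in WT also missed it without both libraries (adjusted p = 0.0622), and Pdk1 in KO without KO hypoxia replicate 2 (0.0524).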
